A study of Mus musculus with 4 samples.

Results

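The genes described here are a list of 38 that make the enzymes and factors of DNA replication and of entry into S phase, followed in whole male mouse gonads from E12.5 to E15.5. They were taken by name, from a list chosen with earlier results of these data known. Of the 38, 34 had a probe on the array that could be matched by its transcript accession, out of 21986 genes tested. No probe was matched for Gins1, Gins2, Rfc3 and Rfc5, which therefore have no value here. The gonads came from wild type embryos of the mouse line named MCH, no treatment is named in the labels, and the labels set the 4 groups apart by stage only, at 1 day steps from E12.5 to E15.5. The arrays of E14.5 and E15.5 also differ from the earlier ones in slide, scan session and software version. Each stage has 2 one-colour Agilent arrays, called biological duplicates in the text of the series. Levels are log2 of the processed spot signal minus the 75th percentile of the same array, so that 0 is the level of that percentile. The labelled tissue was checked against its markers. Of 9 Sertoli cell markers all 9 were above background on every array, as were 8 of 9 germ cell markers, all but Nanos2, and 5 of 6 fetal Leydig cell markers, all but Lhcgr.

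Before a cell copies its DNA, the origin recognition complex, Cdc6 and Cdt1 load the ring-shaped MCM helicase onto origins. Cyclin E with its kinase, Mcm10, Cdc45 and the GINS complex then turn the helicase on, and the polymerases follow it with the sliding clamp Pcna, which the Rfc clamp loader places on DNA. Many genes of this machinery are controlled by E2F factors and are transcribed mainly in cells that divide. In the fetal testis of these days the germ cells leave the cell cycle and rest, while somatic cells of the cords and the interstitium go on dividing.

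All 34 measured genes were above background on all 8 arrays, and none was saturated. Arrays 1 of E12.5 and E13.5 lay on slide 1, arrays 2 of both on slide 2, and the 4 later arrays (E14.5, E15.5) on slide 3, which was scanned in another session and read with another version of the scanner software. E13.5 could therefore be compared with E12.5 within slides, and E15.5 with E14.5 within slide 3. The stage cannot be told apart from slide, scan session and software version in any comparison of E12.5 or E13.5 with E14.5 or E15.5. Probes well above background numbered 24810 to 28724 per array. Genes with an adjusted p under 0.05 in a limma fit over all genes tested count as called, and errors after ± are standard errors of that fit (n = 2 arrays per stage).

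Transcripts of most replication genes were lower in the later gonads. The median over the 34 genes was 3.61 and 3.80 on the E12.5 arrays, 3.07 and 3.36 at E13.5, 3.22 and 2.88 at E14.5, and 2.97 and 3.15 at E15.5. Both E12.5 arrays thus stood above all the others. From E12.5 to E15.5, 13 genes fell, 0 rose and 21 were not called, where 17.4% of all genes tested fell and 17.6% rose. The 13 were Orc1, Cdc6, Mcm2, Mcm4, Mcm5, Mcm7, Mcm10, Cdc45, Pcna, Pold1, Fen1, Chaf1a and Ccne1. The median change of the 34 was -0.64 on the log2 scale, against -0.07 for all genes tested, and 31 of the 34 changes were negative, against 53.2% of all genes. In 29 genes both E15.5 arrays lay below both E12.5 arrays, a pattern seen in 39.3% of all genes, and in 1 gene, Gins4, both lay above (34.7% of all genes). The count of 13 depended on single arrays: leaving out arrays 1 and 2 of E12.5 in turn gave 5 and 8, those of E15.5 gave 7 and 5, and either array of E13.5 gave 9. Orc1, Mcm5, Mcm10, Pold1 and Ccne1 kept the call whichever of the 8 arrays was left out.

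**Figure D1:**
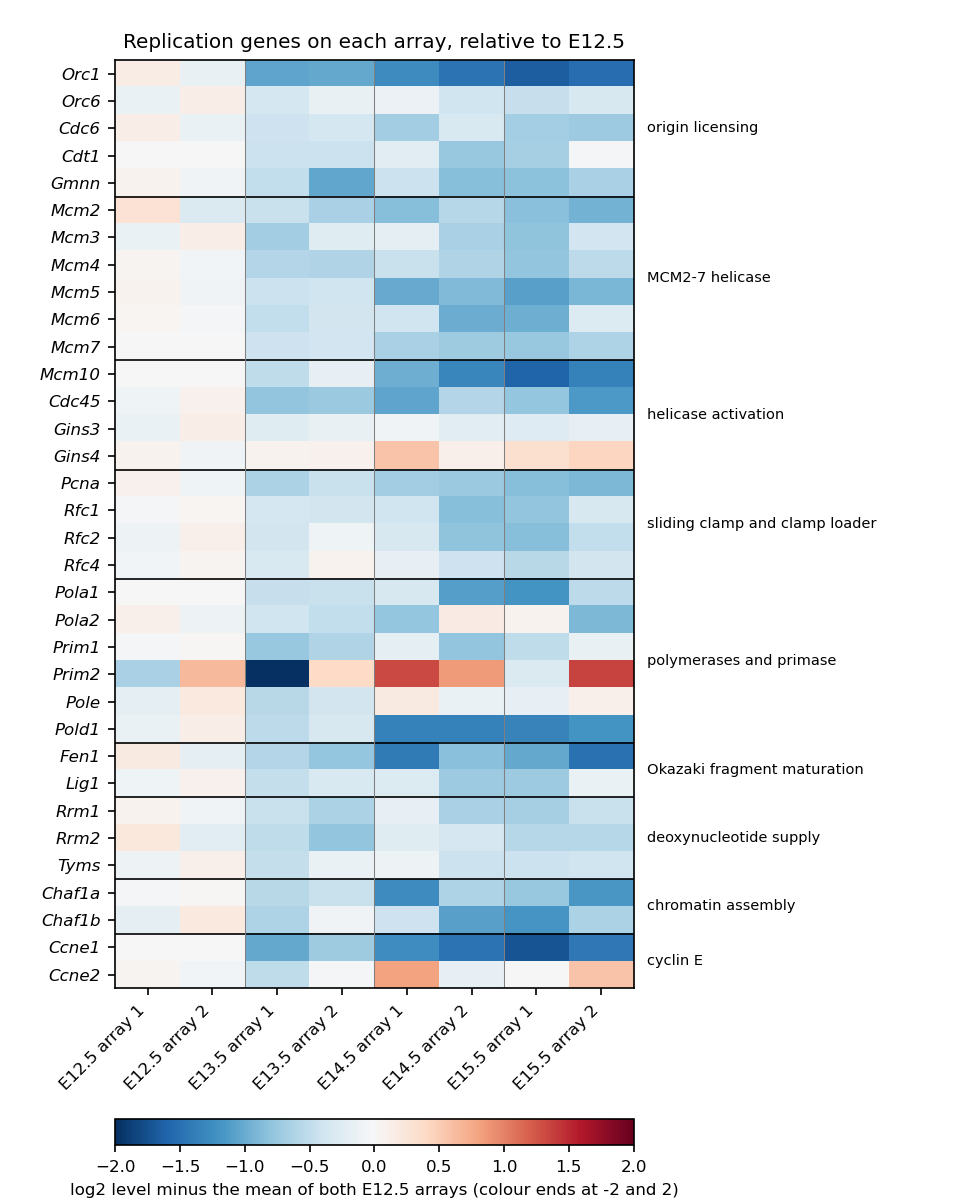
Each row is 1 of the 34 measured genes, grouped by role, and each column 1 array. Colour gives the log2 level minus the mean of both E12.5 arrays of that gene, with colours ending at -2 and 2. Most rows turn blue from E13.5 on, Orc1, Ccne1, Mcm10 and Pold1 the most, while Gins4 is reddish at E14.5 and E15.5 and Prim2 has 1 dark cell on E13.5 array 1.

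**Figure D2:**
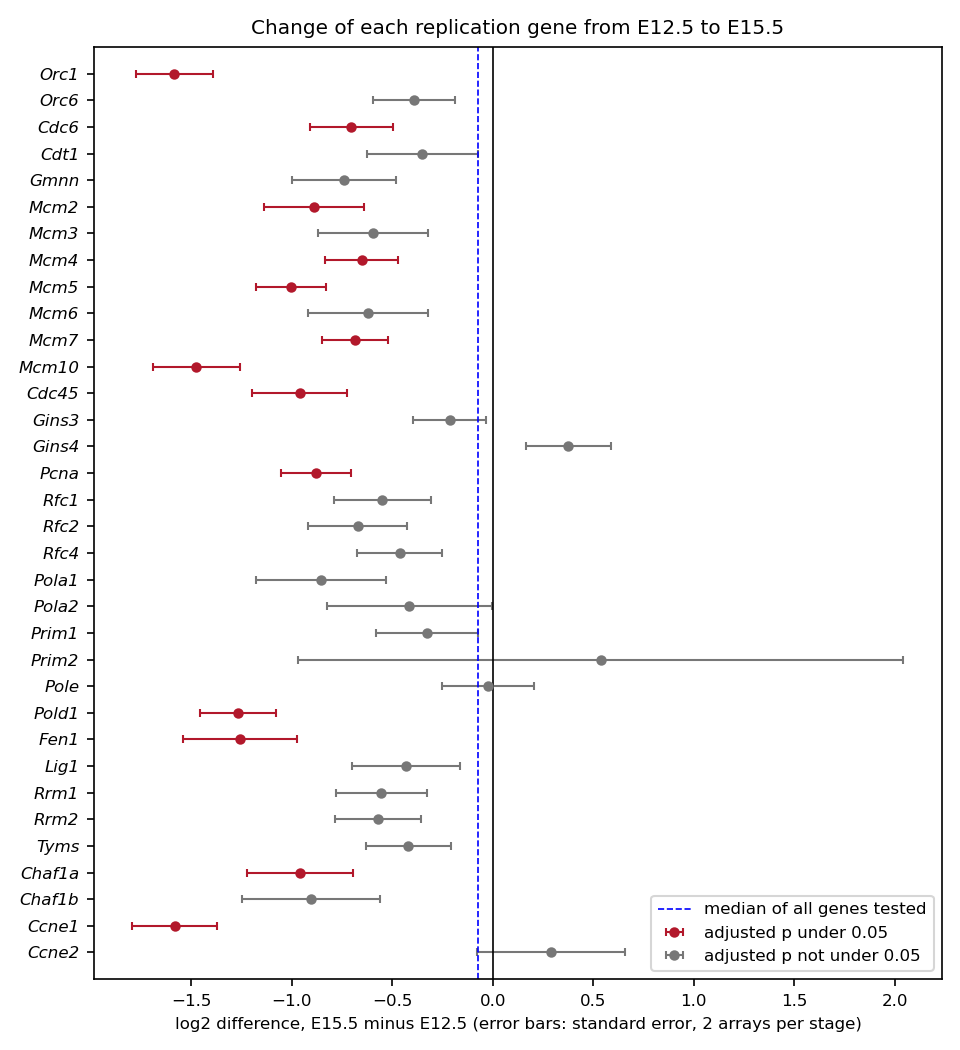
The log2 difference between E15.5 and E12.5 is shown for each of the 34 genes, in order of role, with standard errors of limma from 2 arrays per stage. The 13 called genes are red and all lie left of 0. The dashed line marks the median of all genes tested, -0.07.

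Because these are whole gonads, fewer cells of a dividing type and less RNA per cell cannot be told apart. Markers of other cell types moved over the same stages. The summed level of the erythroid markers (6 of 7 measured, in multiples of the 75th percentile of the array) was 137 to 156 at E12.5, 51.3 to 64.7 at E13.5, 17.7 to 24.2 at E14.5 and 7.84 to 10.6 at E15.5. From E12.5 to E15.5, 5 of the 6 were called lower and 1, Alas2, higher (0.71). The globin genes Hbb-bh1, Hbb-y and Hba-x changed by -7.24, -6.77 and -5.75, but Klf1 by -1.52 and Slc4a1 by -0.90. The sum of 6 endothelial markers went from 18 to 18.4 at E12.5 to 8.29 to 8.57 at E15.5. Of these, Kdr (-2.59) and Cldn5 (-1.86) were called lower and 4 were not called, with Tek positive (0.55) and a median of -0.40. The sum of 5 mesonephric markers went from 2.60 to 2.93 down to 0.193 to 0.221. Of those 5, Pax2, Pax8 and Wnt9b were not above background on every array, and Pax8 was called higher at E15.5. Fetal Leydig cell markers (6 of 6) moved the other way, from 23.7 to 30.8 up to 134 to 159, with 101 to 129.6 already at E13.5, where all 6 were called higher than at E12.5, and interstitial progenitor markers (6 of 6) from 34.2 to 35.2 up to 48.8 to 58.7. Of these interstitial markers Pdgfra (0.85) was called higher and Ptch1 (-1.79) lower from E12.5 to E15.5, and 4 were not called. Macrophage markers (4 of 6 measured) summed to 0.981 to 1.18 at E12.5 and 1.65 to 2.36 at E15.5. They did not share a direction either: Adgre1 (1.41) was called higher, Cx3cr1 (-1.32) lower, and 2 were not called. The germ cell sum was 79.9 to 86.5 at E12.5, 137 to 158 at E13.5 and 91.0 to 110.4 at E15.5. Its 9 markers did not share a direction from E12.5 to E15.5: Dazl, Pou5f1, Nanos2 and Dppa3 were called lower, Mael, Dnd1 and Tex101 higher, and the median was -1.07. For the Sertoli cell markers the ranges of the sum overlapped, 110 to 120 at E12.5 and 108 to 123 at E15.5. Single markers moved in both directions: Sox8 (1.89) and Clu (1.74) were called higher, Cyp26b1 (-1.78) lower, and 6 were not called. Their median was -0.26. The part of these shifts in the changes of the replication genes was not tested.

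Most of the median difference was already present between E12.5 and E13.5. In 24 of the 34 genes both E12.5 arrays stood above all other arrays, as in 16.2% of all genes. In 27 of the 34 genes the largest drop between consecutive days fell on this step, in 5 on the next step, and in 2 on the last. These counts of the largest drop have no share over all genes beside them. On this step 33 of 34 changes were negative, with a median of -0.44, where 56.2% of all genes were negative with a median of -0.06. In 28 genes both E13.5 arrays lay below both E12.5 arrays, as in 29% of all genes. Only Orc1 passed the test and none rose, where 1.3% of all genes fell and 2.68% rose. An unadjusted p under 0.05 was found in 11 of the 34, a count with no share over all genes beside it. The difference was seen on each slide: the median was -0.52 on slide 1, with 34 of 34 genes lower (57.1% of all genes), and -0.39 on slide 2, with 31 of 34 lower (54.1% of all genes). Gins4, Rfc4 and Ccne2 were the 3 genes that were not lower on slide 2.

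**Figure D3:**
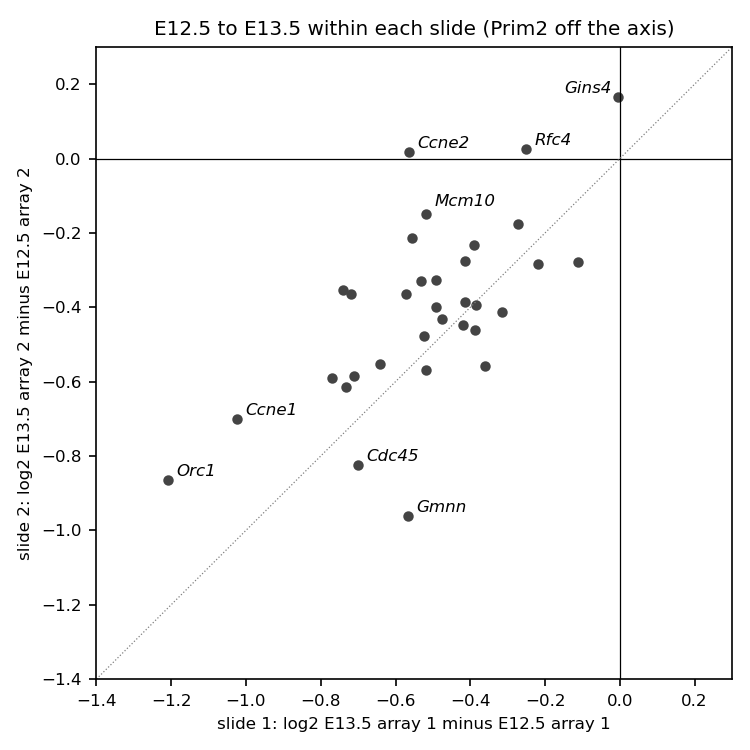
Each point is 1 gene, with its log2 difference between E13.5 and E12.5 on slide 1 along the horizontal axis and on slide 2 along the vertical axis. Prim2, at -3.95 on slide 1, is off the axis, and the dotted line marks equal differences. Nearly all points lie in the region below 0 on both axes, with Orc1 and Ccne1 farthest out on slide 1 and Gmnn lowest on slide 2.

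Later steps were smaller and less uniform. From E13.5 to E14.5 the median change was -0.11 (all genes -0.02), 21 of 34 were negative (51.1% of all genes), and 1 gene, Pold1, was called lower and 0 higher, against 6.04% and 6.44% of all genes. From E14.5 to E15.5 the median was -0.13 (all genes 0.01), and 26 of 34 were negative (48% of all genes). Limma called 0 genes, against 0.0955% of all genes called lower and 0.559% called higher. An unadjusted p under 0.05 was found in 0 of the 34, with no share over all genes beside it. Of the 34 genes, 15 were negative at all 3 steps, and 12 were negative at the first and positive at the second. These counts too have no share over all genes beside them, and the second step runs across slides.

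Duplicates on slide 3 differed more than those on slides 1 and 2. The median gap between the 2 arrays of a stage, over the 34 genes, was 0.44 at E14.5 and 0.27 at E15.5, against 0.17 at E12.5 and 0.18 at E13.5. In 24 genes E14.5 array 1 and E15.5 array 2 were both the higher of their pair, in 6 genes both the lower, and in all 30 of 34 the gaps ran in opposite directions, as they did in 76.6% of all genes. The step from E14.5 to E15.5 had a median of -0.33 between arrays 1 (all genes -0.04) and of 0.09 between arrays 2 (all genes 0.10). Between E14.5 array 2 and E15.5 array 1 it was -0.09, and between E14.5 array 1 and E15.5 array 2 it was -0.11.

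The promoters of the most changed genes of 4 roles are shown for what regulatory sequence they hold, as RefSeq gives it for the build GRCm38.p6. Each is the 250 bases before the gene's start, 5′ to 3′ on the strand of the gene, with capitals on every match, on either strand, to 4 searched motifs: E2F sites (TTTCCCGC, TTTCGCGC, TTTGCCGC or TTTGGCGC), the CCAAT box (CCAAT), the CHR element (TTTGAA) and the GC box (GGGCGG). Orc1 lies at chr4:108579204-108579453 on the plus strand, Ccne1 at chr7:38107491-38107740 on the minus strand, Mcm10 at chr2:5012792-5013041 on the minus strand, and Pold1 at chr7:44548816-44549065 on the minus strand.
Orc1: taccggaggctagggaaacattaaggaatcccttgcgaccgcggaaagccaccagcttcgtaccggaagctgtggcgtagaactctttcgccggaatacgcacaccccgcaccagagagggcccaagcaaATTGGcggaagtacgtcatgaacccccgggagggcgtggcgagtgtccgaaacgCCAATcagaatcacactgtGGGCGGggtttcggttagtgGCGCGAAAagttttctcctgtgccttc
Ccne1: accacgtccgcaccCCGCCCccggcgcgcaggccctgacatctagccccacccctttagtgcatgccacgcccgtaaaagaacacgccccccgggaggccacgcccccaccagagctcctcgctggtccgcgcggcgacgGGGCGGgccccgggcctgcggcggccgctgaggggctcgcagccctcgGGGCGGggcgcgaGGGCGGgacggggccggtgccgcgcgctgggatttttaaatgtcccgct
Mcm10: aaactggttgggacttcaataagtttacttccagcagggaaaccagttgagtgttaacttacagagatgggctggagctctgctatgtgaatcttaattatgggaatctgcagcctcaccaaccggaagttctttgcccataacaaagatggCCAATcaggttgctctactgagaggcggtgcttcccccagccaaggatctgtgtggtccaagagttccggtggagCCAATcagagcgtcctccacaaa
Pold1: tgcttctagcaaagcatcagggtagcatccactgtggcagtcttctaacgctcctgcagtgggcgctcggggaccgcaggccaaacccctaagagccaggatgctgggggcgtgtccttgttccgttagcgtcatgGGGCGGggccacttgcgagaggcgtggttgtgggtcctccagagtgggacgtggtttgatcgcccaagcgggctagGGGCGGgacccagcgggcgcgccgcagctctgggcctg
In Orc1 the E2F word TTTCGCGC, read on the opposite strand, covers bases -27 to -20, and CCAAT boxes begin at -120 (opposite strand) and -66. Mcm10 has CCAAT boxes beginning at -98 and -23 and no E2F word in its window. Ccne1 has 4 GC boxes in the printed bases and neither an E2F word nor a CCAAT box, and Pold1 has 2 GC boxes there and an E2F word after the start, at bases 40 to 47, not printed.

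Over windows of 300 bases, which add 50 bases after the start, 29 of the 38 genes had an entry, and Prim2, Rfc2, Gins1, Mcm4, Pole, Ccne2, Gmnn, Gins2 and Gins4 had none in the table used here. An E2F word was found in 12 of the 29 (41.4%), against 2.26% of all 32851 promoters and 2.61% of the 27025 genes they belong to. The 12 were Orc1, Cdc6, Cdt1, Mcm3, Mcm5, Mcm6, Mcm7, Gins3, Rfc3, Pola1, Pold1 and Lig1. In Mcm5 and Mcm6 words on opposite strands overlap. A CCAAT box was found in 18 (62.1%, all promoters 37.4%), a GC box in 22 (75.9%, all promoters 35.7%) and a CHR element in 4 (13.8%, all promoters 17.9%). The windows of these genes also held more G and C, with a median of 60% against 52.7%. Among genes that fell from E12.5 to E15.5, 5 of 12 had an E2F word, and among measured genes not called, 6 of 15. A match describes the letters of a window only.

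Of the origin licensing genes, Orc1 changed most. It encodes the largest subunit of the origin recognition complex. Its levels were -0.14 and -0.45 at E12.5, -1.35 and -1.31 at E13.5, -1.55 and -1.77 at E14.5, and -1.94 and -1.82 at E15.5. No array of a later stage overlapped those of the stage before. Orc1 fell by 1.04 ± 0.19 on the log2 scale from E12.5 to E13.5 (adjusted p = 0.0390), on slides that held both stages. It fell by 1.58 ± 0.19 over the whole span, or 3.0-fold (adjusted p = 0.00177). The first of these calls was lost whichever of the 8 arrays was left out, with adjusted p from 0.0538 to 0.192, whereas the change itself stayed between -1.19 and -0.88.

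Cdc6, which loads the helicase together with Cdt1, fell by 0.70 ± 0.21 from E12.5 to E15.5 (adjusted p = 0.0406), a call lost without either array of E12.5, E13.5 or E15.5. A second probe of Cdc6 gave -0.46, and the mean of both probes gave -0.58 (adjusted p = 0.0561), short of the threshold. The other 3 licensing genes were not called. Cdt1 changed least: it was 4.46 and 4.49 at E12.5, 4.04 and 4.04 at E13.5, 4.25 and 3.71 at E14.5, and 3.82 and 4.43 at E15.5. The wide gap between its E15.5 arrays left a difference of -0.35 ± 0.28. Gmnn, the inhibitor of Cdt1, had a difference of -0.74 ± 0.26 (adjusted p = 0.0653), nearly all of it from E12.5 to E13.5 (-0.76), and Orc6, a small subunit of the origin complex, one of -0.39 ± 0.20.

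The 6 subunits of the MCM helicase were each lower on both E13.5 arrays and on both E15.5 arrays than on either E12.5 array. Mcm2, Mcm4, Mcm5 and Mcm7 fell from E12.5 to E15.5, and Mcm3 and Mcm6 were not called. Mcm5 was 4.46 and 4.32 at E12.5, 3.96 and 3.99 at E13.5, 3.39 and 3.51 at E14.5, and 3.29 and 3.47 at E15.5. It came down in 2 steps and then stayed within the spread of its duplicates, and the total difference was -1.0 ± 0.17, or 2.0-fold lower (adjusted p = 0.00639).

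Mcm3 changed least of the 6. It was 5.27 and 5.53 at E12.5, 4.70 and 5.16 at E13.5, 5.20 and 4.75 at E14.5, and 4.60 and 5.01 at E15.5. Its E14.5 and E15.5 arrays overlapped, and the difference from E12.5 to E15.5 was -0.59 ± 0.27 (adjusted p = 0.136), or -0.92 by a second probe. Mcm6 had -0.62 ± 0.30, with E15.5 arrays at 5.62 and 6.32. Mcm2 fell by 0.89 ± 0.25, Mcm7 by 0.68 ± 0.16 and Mcm4 by 0.65 ± 0.18, and each of these 3 calls was lost without E12.5 array 1 and without either E15.5 array, some of them without other arrays too.

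Among the genes that turn the helicase on, Mcm10 and Cdc45 fell and Gins3 and Gins4 were not called. Mcm10, which activates the loaded helicase, was 3.77 and 3.75 at E12.5, 3.25 and 3.6 at E13.5, 2.78 and 2.46 at E14.5, and 2.17 and 2.41 at E15.5. No 2 neighbouring stages overlapped. Unlike most of the set, its largest step was from E13.5 to E14.5 (-0.81 ± 0.22, adjusted p = 0.0571), and the fall from E12.5 to E15.5 was 1.48 ± 0.22, or 2.78-fold (adjusted p = 0.0035). Cdc45, a part of the moving helicase, fell by 0.96 ± 0.24 from E12.5 to E15.5, of which 0.76 lay before E13.5. Leaving out either E12.5 array, or array 2 of E15.5, ended the call of Cdc45.

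Gins3 and Gins4 encode subunits of the GINS complex. Gins3 had the smallest difference over the span of the 4, -0.21 ± 0.18, and was 0.25 and 0.51 at E12.5, 0.14 and 0.23 at E13.5, 0.30 and 0.16 at E14.5, and 0.12 and 0.21 at E15.5. Gins4 was 2.71 and 2.56 at E12.5, 2.70 and 2.72 at E13.5, 3.20 and 2.73 at E14.5, and 2.95 and 3.06 at E15.5. Both of its E15.5 arrays lay above both E12.5 arrays, by 0.38 ± 0.21 on average (adjusted p = 0.206), a difference that did not pass the test.

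**Figure D4:**
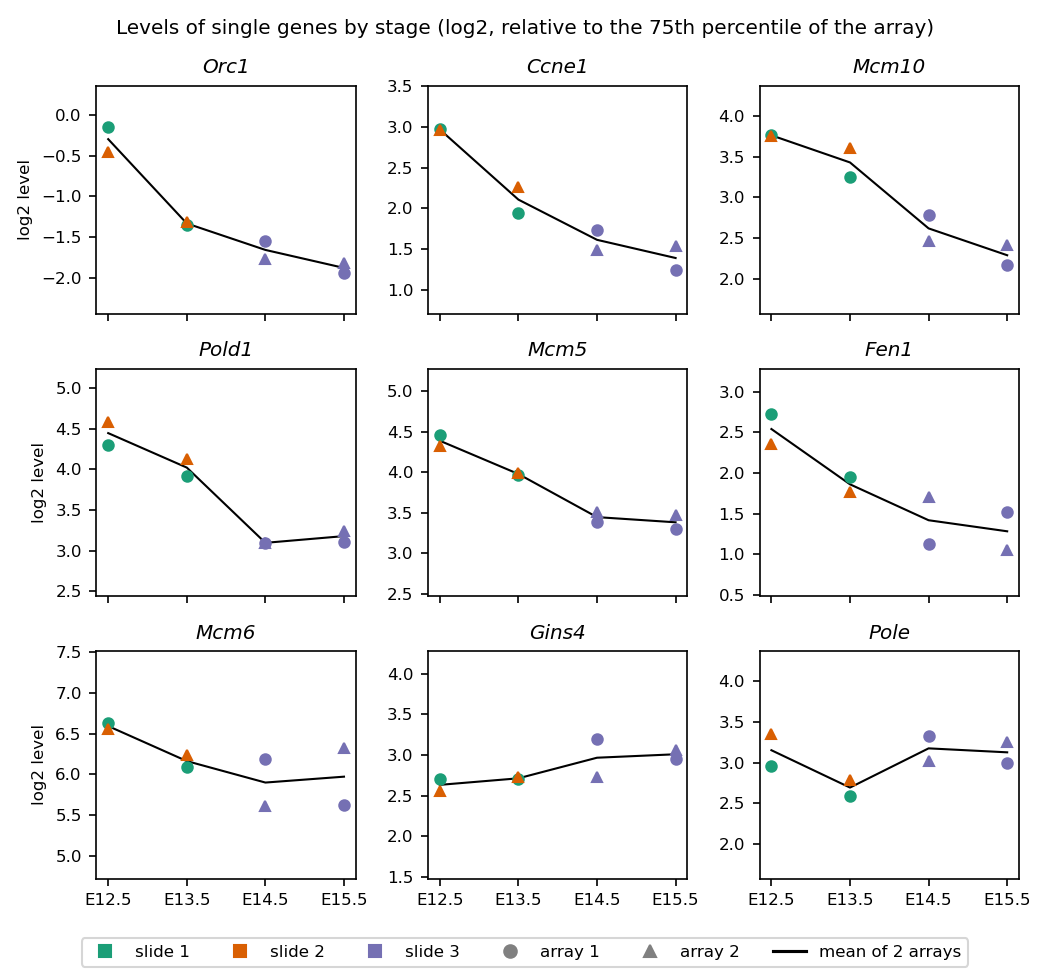
Log2 levels of 9 genes on each array, by stage, with circles for array 1, triangles for array 2, colours for the 3 slides and a line through the stage means. Every panel spans the same number of log2 units. Orc1, Ccne1, Mcm10, Pold1, Mcm5 and Fen1 come down over the stages, the arrays of Mcm6 spread widely at E14.5 and E15.5, Gins4 ends above its start, and Pole is low at E13.5 only.

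Pcna, the ring that holds polymerases on DNA, was 5.39 and 5.22 at E12.5, 4.67 and 4.86 at E13.5, 4.61 and 4.57 at E14.5, and 4.45 and 4.41 at E15.5. Its levels came down without overlap at each step, by 0.88 ± 0.17 in all (adjusted p = 0.0103), though leaving out E12.5 array 1 or either E15.5 array ended the call. The 3 measured clamp loader genes were not called. Rfc4 changed least, at 4.16 and 4.27 at E12.5, 3.91 and 4.29 at E13.5, 4.06 and 3.80 at E14.5, and 3.66 and 3.84 at E15.5. Its difference over the span was -0.46 ± 0.21, and those of Rfc1 and Rfc2 were -0.55 ± 0.24 and -0.67 ± 0.25. A second probe of Rfc2 gave -1.14.

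Of the 6 polymerase and primase genes only Pold1 was called. Pold1, the catalytic subunit of the lagging strand polymerase delta, was 4.30 and 4.59 at E12.5, 3.92 and 4.12 at E13.5, 3.09 and 3.1 at E14.5, and 3.11 and 3.24 at E15.5. It dropped mainly between E13.5 and E14.5, by 0.93 ± 0.19 (adjusted p = 0.0301), and stayed at the lower level. That step runs across slides, and its call held when an E12.5 array was left out (adjusted p = 0.0455). It was lost when either array of E13.5, E14.5 or E15.5 was left out, with adjusted p from 0.0614 to 0.145. Over the whole span Pold1 fell by 1.27 ± 0.19, or 2.41-fold (adjusted p = 0.00371), and a second probe gave -1.30.

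Pole, the catalytic subunit of the leading strand polymerase epsilon, had the smallest difference of the 34 over the span, -0.03 ± 0.23. It was 2.96 and 3.35 at E12.5, 2.60 and 2.79 at E13.5, 3.33 and 3.02 at E14.5, and 3.0 and 3.26 at E15.5. Both E13.5 arrays stood below the rest, and the arrays of E12.5 and E15.5 overlapped. Between E13.5 and E14.5 the change was -0.93 ± 0.19 for Pold1 and 0.48 ± 0.23 for Pole, with no overlap of the arrays of either gene. The difference between the genes was not tested.

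The genes of polymerase alpha and its primase, which lay the first stretch of each new strand, were not called. Pola1 had -0.86 ± 0.32 (adjusted p = 0.0835), Pola2 -0.42 ± 0.41 and Prim1 -0.33 ± 0.25 over the span. Prim2 was erratic, at 0.47 and 1.77 at E12.5, -3.47 and 1.51 at E13.5, 2.44 and 1.97 at E14.5, and 0.84 and 2.48 at E15.5. Its duplicates lay far apart at E12.5, E13.5 and E15.5, most of all at E13.5, where array 1 was low. Its standard error of 1.51 was the widest of the 34, and its difference of 0.54 over the span cannot be told from 0.

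Fen1, the nuclease that trims the flaps of Okazaki fragments, was 2.72 and 2.36 at E12.5, 1.95 and 1.77 at E13.5, 1.13 and 1.71 at E14.5, and 1.52 and 1.05 at E15.5. It fell by 1.26 ± 0.28 over the span, or 2.39-fold (adjusted p = 0.0159), and the call ended when E12.5 array 1 or E15.5 array 2 was left out. Lig1, the ligase that joins those fragments, was not called. It was 5.07 and 5.23 at E12.5, 4.68 and 4.84 at E13.5, 4.87 and 4.43 at E14.5, and 4.42 and 5.02 at E15.5, a difference of -0.43 ± 0.27.

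None of the 3 genes that supply deoxynucleotides was called. Rrm2, the small subunit of ribonucleotide reductase that limits its activity outside S phase, was 1.80 and 1.38 at E12.5, 1.09 and 0.80 at E13.5, 1.34 and 1.25 at E14.5, and 1.02 and 1.01 at E15.5. Its lowest array was at E13.5, and over the span the difference was -0.57 ± 0.21 (adjusted p = 0.0808). Rrm1, the large subunit, had -0.56 ± 0.23. Tyms, which makes thymidylate, was 4.14 and 4.33 at E12.5, 3.75 and 4.09 at E13.5, 4.13 and 3.81 at E14.5, and 3.80 and 3.83 at E15.5, a difference of -0.42 ± 0.21 (-0.38 by a second probe).

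Chaf1a and Chaf1b, subunits of the factor that puts histones on new DNA, had similar differences and different calls. Chaf1a was 2.88 and 2.94 at E12.5, 2.36 and 2.46 at E13.5, 1.65 and 2.29 at E14.5, and 2.15 and 1.75 at E15.5. It fell by 0.96 ± 0.26 over the span (adjusted p = 0.0317), a call lost when either array of E12.5, E13.5 or E15.5 was left out. Chaf1b was 3.45 and 3.85 at E12.5, 3.04 and 3.58 at E13.5, 3.23 and 2.56 at E14.5, and 2.47 and 3.03 at E15.5, with -0.90 ± 0.34 (adjusted p = 0.0843).

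Of the cyclin E genes, whose products drive the entry into S phase, Ccne1 fell and Ccne2 was not called. Ccne1 was 2.97 and 2.97 at E12.5, 1.95 and 2.27 at E13.5, 1.74 and 1.49 at E14.5, and 1.24 and 1.54 at E15.5. It fell by 1.58 ± 0.21 over the span, or 2.99-fold (adjusted p = 0.00248), and the first step alone was -0.86 ± 0.21 (adjusted p = 0.0867). A second probe gave -2.49 over the span. Ccne2 was -1.94 and -2.05 at E12.5, -2.51 and -2.04 at E13.5, -1.20 and -2.16 at E14.5, and -1.98 and -1.43 at E15.5. The arrays of each stage overlapped those of the next, and the difference of 0.29 ± 0.37 did not pass the test. A second probe gave 0.0029.

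Lists of other genes around replication were read in the same way, from E12.5 to E15.5 and against the same 17.4% of all genes called lower and 17.6% called higher. Of 31 other replication fork and origin factors 12 fell and 0 rose, with a median of -0.59. Timeless, which steadies the fork, fell by 2.53 ± 0.16 (a second probe gave -1.23), Rpa3, a subunit of the protein that coats single strands, by 1.35 ± 0.20, and Dna2, a flap nuclease, by 1.26 ± 0.20 (-0.69 by a second probe, above background on 6 of 8 arrays). Dna2 was also called from E12.5 to E13.5, at -1.59 ± 0.20 (adjusted p = 0.0116). Of 18 nucleotide synthesis genes 7 fell and 0 rose, with a median of -0.56. Adsl, Atic and Gart, enzymes of purine synthesis, fell by 1.69 ± 0.35, 1.52 ± 0.29 and 1.25 ± 0.33.

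Regulators of the cell cycle were called in both directions. Of 13 genes of the E2F and Rb family 0 fell and 1 rose: Rbl2, a pocket protein related to Rb, by 0.95 ± 0.20 (1.38 by a second probe). Of 12 genes of the cyclins, kinases and ligases of G1 and S phase 5 fell and 1 rose. Cdc25a, a phosphatase that activates Cdk2, fell by 2.43 ± 0.47, Fbxw7, part of the ligase that marks cyclin E for destruction, by 1.85 ± 0.18, and Ccnd1, cyclin D1, by 1.60 ± 0.18. The other 2 that fell were Mycn and Cdk6, and the 1 that rose was Cdk2, the partner kinase of cyclin E, at 1.43 ± 0.31 (2.78 by a second probe), and these 3 are named after their values were seen.

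Of 7 inhibitors of cyclin-dependent kinases 3 fell and 2 rose. Cdkn2c, an inhibitor of the cyclin D kinases, rose by 2.22 ± 0.23, from -1.12 and -1.59 at E12.5 to 0.76 and 0.98 at E15.5. Cdkn1a fell by 1.75 ± 0.19. Cdkn1b fell by 2.31 ± 0.39, but its probe was above background on 1 of the 2 E15.5 arrays, and a second probe, above background on 1 of 8 arrays, gave 0.69. The other 2 called genes, Cdkn1c with -1.62 ± 0.25 and Cdkn2b with 1.01 ± 0.23, are named after their values were seen.

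Among replication checkpoint genes, Rad1 fell by 1.12 ± 0.28 and Brca1 by 1.05 ± 0.23 (-0.39 by a second probe). Rad17, which loads the checkpoint clamp that Rad1 is part of, rose by 0.93 ± 0.25. Of 13 mitosis genes 4 fell and 0 rose, with a median of -0.51. Top2a, the topoisomerase of condensing chromosomes, fell by 1.57 ± 0.39, and the mitotic cyclins Ccnb2 and Ccnb1 by 1.36 ± 0.21 and 1.28 ± 0.25. Other probes of Ccnb1 gave -0.74 and -0.51, and a second probe of Top2a gave -1.93. The fourth was Plk1, named after its value was seen.

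**Figure D5:**
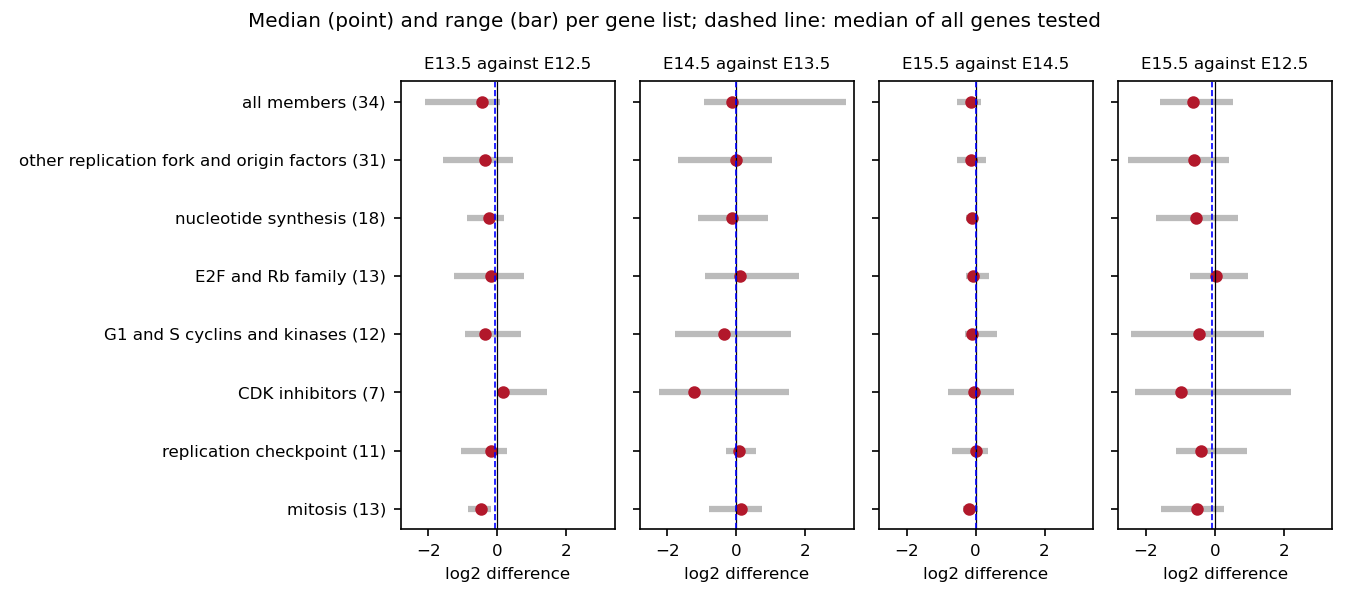
For the 34 replication genes and 7 other lists, with the number of measured genes in brackets, points give the median log2 difference and bars the lowest and highest gene, 1 panel per comparison. The dashed line is the median of all genes tested. From E12.5 to E13.5 and from E12.5 to E15.5 the replication genes lie left of that line, at -0.44 and -0.64, as the mitosis genes do at -0.46 and -0.51.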

How the data were processed

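RNA of whole gonads was hybridised to one-colour arrays, and the authors deposited scanner files of spot intensity on a linear scale. The background had been subtracted by Agilent Feature Extraction, per the file headers. The submitters' processing notes name version 9.5, whereas per the file headers it was 9.1.3.1 for E12.5 and E13.5 and 9.5.3.1 for E14.5 and E15.5. The authors also deposited a table of linear values, a ratio to some centre per probe, with 1 column per stage. Its columns correlated with the scanner values across 21986 genes at r of 0.998 or more, and had medians of 1.14, 1.00, 0.898 and 0.859. How it was centred and scaled, and how arrays were combined in it, remain unknown, so it served as an alternative with no test.

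From the deposited intensity, log2 of the processed signal minus the 75th percentile of the array was taken, with spots of a probe averaged and outlier spots left out. Probes well above background on both arrays of a stage were kept (28188), named through RefSeq accessions (22951 of 41174 probes, 55.7%, had 1 symbol, 0 had several and 18223 had none), and the probe of highest mean stood for a gene. All 8 arrays entered 1 fit with a mean per stage in limma 3.58.1 (R 4.3.3), with 4 residual degrees of freedom and 2.57 from the moderated variance, and Benjamini-Hochberg adjustment over all genes. The number of arrays limits the precision, and the p-values measure only the spread between duplicates. A call is an adjusted p under 0.05. The fit was also run on simulated data. Their noise was independent and held no slide effect, so that run cannot speak to differences between slides. Of the 34 genes 7 had a second probe, whose change from E12.5 to E15.5 is given beside that of the first.

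Values on every array are given for genes called within slides, for the gene of largest and of smallest change per role, and for genes whose sign from E12.5 to E15.5 opposed the median; of each other list, the 3 most changed called genes are named. The genes and lists were chosen with earlier results of these data known. The count of calls among the replication checkpoint genes is not reported here. Alternatives were the scaling (array median, quantile), normexp background correction with an offset of 50, the filter, the mean of probes, only the arrays compared, slide as a block, and each array left out. Normexp used the median spot signal, since the mean signal was not in the files used here. Added after seeing the data were normexp with extreme background values replaced, and the array number as a block, as it stands and crossed for E14.5 and E15.5. Deviations of same-numbered arrays from their stage means correlated at 0.646 between E12.5 and E13.5, whose same-numbered arrays share a slide, and at -0.589 between E14.5 and E15.5. The numbers thus pair arrays by slide for the first 2 stages and do not pair them across all stages.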

Additional observations from a re-analysis of the deposited data

How the results depend on the processing

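The median change of the 34 replication genes from E12.5 to E13.5 and from E12.5 to E15.5 stayed negative under every alternative run. From E12.5 to E13.5 the number called, 1, was 0 with array median scaling, normexp, no filter, only the arrays compared or the array number as a block, and 2 with the mean of probes; with each array left out it was 0 to 0, and with slide as a replicate block it stayed 1. From E13.5 to E14.5 it was 0 with array median scaling, normexp, no filter, only the arrays compared or the array number as a block, 2 with quantile scaling, normexp with extreme background replaced, the filter on all arrays or the mean of probes, and 0 to 1 with each array left out (without E13.5 array 2 the 1 was Prim2, higher). From E14.5 to E15.5 it was 0 throughout. From E12.5 to E15.5 the 13 became 8 with quantile scaling, 3 with normexp, 8 without a filter, 8 with the array number as a block, and 5 to 13 with each array left out. Extreme background values sat on at most 3 probes of an array. With these replaced before normexp, Cdc6 was the only gene of the 13 to lose its call. Pairing array 1 of E14.5 with array 2 of E15.5 as a crossed block gave 7 called from E12.5 to E13.5, 8 from E13.5 to E14.5 and 28 over the whole span. That pairing was taken from the deviations of these same arrays, and no label names it. A block chosen so takes spread out of the fit, so these higher counts lend the calls no weight.

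Medians moved to -0.68 with normexp from E12.5 to E13.5 (all genes 0.29), to -0.44 with quantile scaling from E12.5 to E15.5, and in the authors' deposited table to -0.38 from E14.5 to E15.5 and -0.96 from E12.5 to E15.5, where the medians of all genes were -0.23 and -0.39. Normexp with extreme background values replaced gave -0.43 from E12.5 to E13.5 (all genes -0.05). With each array left out the medians ran from -0.50 to -0.38, -0.17 to -0.01, -0.20 to 0.01 and -0.76 to -0.52 for the 4 comparisons in order. From E12.5 to E15.5 the sign turned for Pole (0.10 with quantile scaling, -0.22 to 0.17 with each array left out), Prim2 (-0.28 to 1.36 with each array left out) and Ccne2 (-0.031 in the authors' deposited table), 3 genes that were not called. Causes were not tested. Of 540 single gene values recomputed, 432 kept their sign and side of the threshold, 93 lost and 9 gained a call, and 6 changed sign. All 34 genes were above background on all arrays, so signal over background limits none of them.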
